A study of Sus scrofa with 12 samples.

Results

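Transcripts detected in one breed only are the rows of the coding-gene and lncRNA tables that had counts in the testis of Hezuo (HZ) or Landrace (LC) boars and next to none in the other breed. A row was taken as a member when its estimated count was at most 3 in all 6 libraries of one breed and its mean count was at least 10 over the 6 libraries of the other breed. Of 32380 rows, 178 met this rule, and 100 of them were detected in HZ only and 78 in LC only. The HZ rows comprised 29 of the coding-gene table and 71 lncRNA transcripts, and the LC rows comprised 36 and 42. The members were chosen by these measured counts, which are given below as a description, and the difference between the breeds was not tested.

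Testes of castrated boars were sequenced as 4 groups of 3 libraries, each library from a separate animal. The groups are Ha (HZ, 30 days old), Hb (HZ, 120 days old), La (LC, 30 days old) and Lb (LC, 120 days old). The coding-gene table has 21674 rows and the lncRNA table has 10706. Rows named MSTRG come from the transcripts that the authors assembled from these libraries, and the other rows are RefSeq genes or transcripts. The estimated counts of the coding-gene table came to between 17165519 (Hb3) and 23758931 (Ha1) per library, and those of the lncRNA table to between 496269 (La3) and 767783 (Hb2). No pair of libraries of a group agreed within sampling noise, since the mean chi-square over coding rows was 17.8 or more in every pair.

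The pig testis at 30 days holds mostly Sertoli cells, gonocytes or spermatogonia and the steroid-producing Leydig cells between the tubules, while meiotic cells and spermatids fill the tubules as puberty proceeds. Spermatids transcribe a large and varied part of the genome, including many long noncoding RNAs that other tissues lack. A transcript can be counted in one breed and not in another for many reasons, among them regulation, the content of the genome and how well reads fit a single reference.

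The markers of the tissue followed the labels of age. The CPM below were scaled with TMM over the 12 libraries. The 6 spermatid markers, of which PRM1 was the most abundant, summed to between 3.86 and 7.78 CPM in the 30-day libraries and between 2590 and 6528 CPM in the 120-day libraries. The 5 spermatocyte markers summed to between 7.29 and 19.1 CPM at 30 days and between 351.9 and 581.3 CPM at 120 days. Both lists separated the ages with no overlap in either breed.

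The somatic markers differed among libraries of one group. The 6 Leydig cell markers, with CYP17A1 the most abundant, summed to 3929 CPM in Hb1, 192.9 CPM in Hb2 and 115.9 CPM in Hb3. Hb1 therefore stood apart from the other Hb libraries, and in Lb the same sum was 4740, 7200 and 2871 CPM. In bulk tissue, fewer cells of a type and less RNA per cell cannot be told apart. The part of these sums in the results below was not tested.

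The remaining lists set out what else the tissue held. The 7 Sertoli cell markers summed to between 1196 and 3210 CPM at 30 days and between 391.3 and 731.6 CPM at 120 days. The peritubular and stromal list lay between 3186 and 5423 CPM at 30 days, between 185.7 and 428.9 CPM in Hb and between 1868 and 2203 CPM in Lb. Of the 6 stromal markers, COL3A1 was the most abundant. The 5 germ cell markers summed to between 169.9 and 306.5 CPM at 30 days and between 604.7 and 829.6 CPM at 120 days. DDX4 made up most of that rise (mean 20.6 CPM in Ha and 565.6 in Hb, 13.3 in La and 388.3 in Lb), while ZBTB16 went the other way (107.2 and 60 CPM in Ha and Hb, 93.6 and 63.2 in La and Lb), as did KIT in HZ (60.7 and 29.9 CPM). The endothelial list lay between 139.7 and 664.0 CPM over the 12 libraries, and the macrophage list between 9.36 and 110.2 CPM. Erythroid markers (2 of 3 found) stood between 5.32 and 143.1 CPM, and those of T and B cells between 0.594 and 15.8 CPM. The epididymal and rete list (3 of 4 found) stayed below 0.938 CPM or at it in every library. Adrenal markers (2 of 3 found) reached 35.7 CPM, through CYP21A2, and skeletal muscle markers reached 42.7 CPM, through ACTA1. These sums describe a testis with a varying share of interstitial RNA and little sign of epididymis.

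The values next to the thresholds show how sharp the limits were. In HZ, LOC102164252 (XR_002344445.1) stood just inside the minimum with a mean of 10.1 counts, and MSTRG.24152.1 just outside with 9.91. In LC, LOC102161650 (XR_002346785.1) had a mean of 10 and MSTRG.7993 a mean of 9.83. At the ceiling, MSTRG.22321 and MSTRG.19381 reached 3 counts in the other breed and were members, while MSTRG.2725.2 reached 3.1 and LOC110257712 reached 3.46 and were not. LOC110257712, named FAM127 protein in the table, had a mean of 215 counts in LC and so missed the rule by a fraction of a count.

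Many of the members were absent to the last count in the other breed. In HZ, 54 of the 100 rows were at exactly 0 in all 6 LC libraries, and 42 of the 78 LC rows were at exactly 0 in all 6 HZ libraries. Assembled transcripts made up a large part of the members. Of the HZ rows, 51 were assembled lncRNA transcripts (51%, beside 5.52% of the 19597 rows with a mean of at least 10 counts in HZ) and 19 were assembled coding rows (19%, beside 3.91%). Of the LC rows, 23 were assembled lncRNAs (29.5%, beside 5.11% of 19567 rows) and 15 were assembled coding rows (19.2%, beside 3.73%). RefSeq genes made up 10% of the HZ rows and 26.9% of the LC rows, beside 80.7% and 80.9% of the rows with that mean.

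Few members were found throughout the breed that had them. More than 3 counts in all 6 libraries were seen in 9 of the 100 HZ rows and 4 of the 78 LC rows, against 82.5% and 83.6% of all rows with a mean of at least 10 in that breed. The members had low counts, with a median mean of 25 in HZ coding rows, 20.7 in HZ lncRNAs and 21.1 in both LC kinds. The share among all rows of a like mean was not taken. A single library held more than 3 counts in 16 HZ rows (16%, beside 0.204% of all rows with that mean) and 10 LC rows (12.8%, beside 0.133%). The most frequent number was 3 of 6 libraries, with 37 HZ rows and 36 LC rows. All 3 libraries at 120 days and none at 30 days held 32 of the HZ rows (32%, beside 6.14%) and 25 of the LC rows (32.1%, beside 6.53%). The reverse held for 2 HZ rows (2%, beside 0.725%) and 7 LC rows (8.97%, beside 0.409%).

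The filter on low counts of the age test had a minimum of 10 counts. Rows under 10 counts in every library of an age passed it only through the other age, where they were high. The filter thus favoured a difference in such rows and their calls support nothing. Only their counts and folds are given below, with no p.

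**Figure D1:**
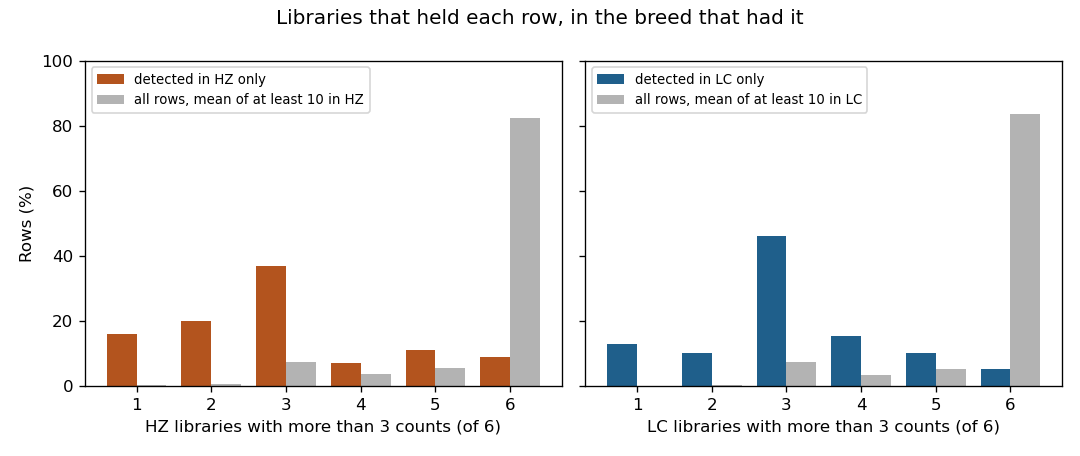
The bars give the percentage of rows (vertical axis) by the number of libraries with more than 3 estimated counts, out of 6, in the breed that had the row. Coloured bars are the rows detected in HZ only or LC only, grey bars are all rows with a mean of at least 10 counts in that breed, and 9% of the HZ rows against 82.5% of all rows reached 6 libraries.

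SHOX, a homeobox transcription factor of limb and skeletal growth whose gene lies on the part shared by the X and Y chromosomes, was among the few rows seen in every HZ library. Its counts were 65, 41 and 39 in Ha and 6, 33 and 11 in Hb, and all 6 LC libraries were at 0. Per length, SHOX reached a deposited FPKM of 1.81 ± 0.513 (SD, n = 3) at 30 days, falling to 0.617 ± 0.466 (SD, n = 3) at 120 days. The Ha libraries lay above those of Hb, but the age change did not pass (log2 fold change -1.10, SE 0.56, edgeR adjusted p = 0.116). It was called without Hb2 (log2 fold change -1.83) and with limma on log2(FPKM + 0.1) (-1.60). The gene is not assigned to a chromosome in the positions used.

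More than 3 counts in every HZ library were also held by the coding row LOC100525582, a LAIR1-like immune receptor on chromosome 6 that lies outside the rule for named genes and was chosen after its values were seen. Its counts were 14, 10 and 14 in Ha and 17, 21 and 15 in Hb, and no LC library went above 2.03. The age groups did not overlap and the age change did not pass (log2 fold change 0.98, SE 0.38, edgeR adjusted p = 0.051). The third such coding row, MSTRG.25435, also lay outside that rule and was chosen after its values were seen. It had 34, 26 and 36 counts in Ha, 6, 3 and 4 in Hb (rounded, with Hb2 above 3 before rounding) and 0 in LC. Its fitted log2 fold change was -2.32. No Hb library reached 10 counts, so MSTRG.25435 passed the filter only through Ha and its call supports nothing.

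PON3, a paraoxonase that hydrolyses lactones, was counted mostly at 30 days. It had 78, 141 and 22 counts in Ha, 0, 6 and 2 in Hb and at most 3 in LC. Its fitted log2 fold change from 30 to 120 days was -4.41, and -0.93 with limma on log2(FPKM + 1). No Hb library reached 10 counts, so PON3 passed the filter only through Ha and its call supports nothing. It lies at chr9:74983040-75017947. Its neighbours PON1 and PON2, of the same family, are within 10 kb, and PON2 had between 166 and 827 counts in all 12 libraries. PON1 stood at 25, 27 and 24 counts in Ha, 0, 1 and 0 in Hb, 6, 4 and 2 in La and 53, 6 and 6 in Lb, so it was higher in HZ at 30 days and higher in LC at 120 days.

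KRT36, a hair keratin, was counted mostly at 120 days. It had 2, 0 and 1 counts in Ha and 40, 98 and 58 in Hb, a ratio of 91.9 with a 95% counting interval of 31 to 449.6. HABP2, a serine protease that binds hyaluronan, gave 1, 1 and 2 counts in Ha and 18, 59 and 9 in Hb. All Hb libraries lay above all Ha libraries in both genes. HABP2 overlaps NRAP, which was counted in both breeds, so reads of the pair may be shared.

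Several named HZ genes rested on a few libraries, and none of these passed the filter. LOC110261290, a ZNF160-like zinc finger gene, had 169 counts in Hb1 and 148 in Hb3 but 1 in Hb2. HEG1, a receptor of the vessel wall, had 64 counts in Ha2 and 36 in Hb1 and 0 in the other HZ libraries. SYNPO, an actin-binding protein, had 92 counts in Ha3 and 0 in the other 11 libraries. C14H10orf53 had 20 counts in Hb1, 49 in Hb2 and 0 in the other HZ libraries. These patterns do not follow age or breed as a whole.

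Assembled coding rows of HZ include the largest counts. MSTRG.12866 had 1455 counts in Hb2 and at most 2 in any other library, so its mean of 243 counts is that of a single library. MSTRG.146 had 265, 800 and 283 counts in Hb, 0, 0 and 1 in Ha and 0 in LC. Its ratio of 120 to 30 days was 1897 with a 95% counting interval of 339.8 to 74968. MSTRG.22321 had 306, 143 and 184 counts in Hb and 4, 7 and 2 in Ha. Its fitted log2 fold change was 6.12, but it passed the filter only through Hb. MSTRG.21329 had 134, 115 and 177 counts in Hb and 0 in Ha, at least 69.5-fold higher at 120 days, and MSTRG.770 had 63, 28 and 137, at least 39.3-fold higher. The floor of such a fold is 3 counts in each library of the group at 0. All of these rows but MSTRG.12866 separated the ages in HZ without overlap.

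Other assembled HZ rows were counted at 30 days. MSTRG.25416, whose closest protein in the table is collagen alpha-1(VI), had 43, 55 and 64 counts in Ha and 6, 7 and 2 in Hb. Its fitted log2 fold change was -2.93. MSTRG.11546, close to cullin-7, a scaffold of a ubiquitin ligase, had 30, 37 and 45 counts in Ha and 2, 4 and 0 in Hb. The fitted log2 fold change of MSTRG.11546 was -3.69. MSTRG.11956, close to the retroviral envelope gene ERV3-1, had 113 and 116 counts in Ha1 and Ha2 and 1 in Ha3. A row close to a lipocalin, MSTRG.24810, had 146 counts in Ha2 and at most 2 elsewhere. MSTRG.25416 and MSTRG.11546 were lower in all Hb libraries than in any Ha library, but they passed the filter only through Ha. MSTRG.11956 and MSTRG.24810 were not tested and split the libraries of a single age.

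**Figure D2:**
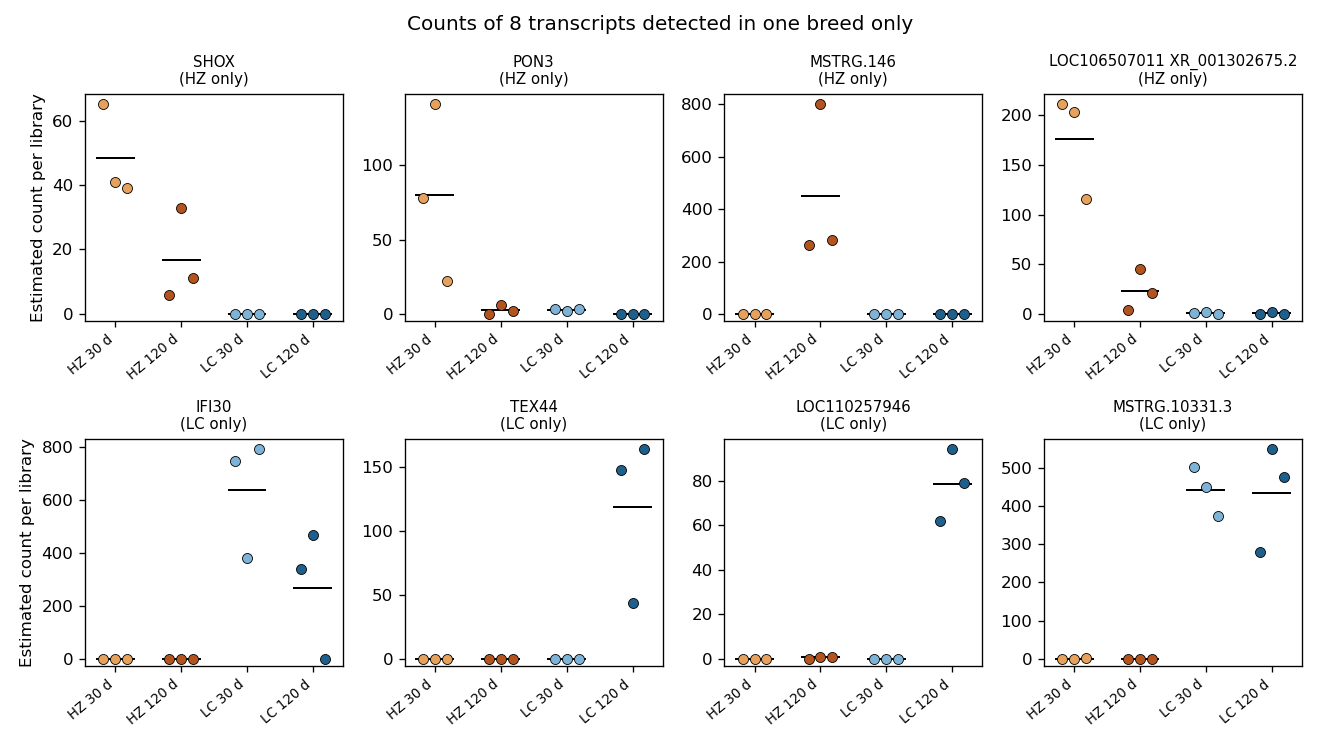
Points are estimated counts per library (vertical axis) in the 4 groups, with 3 libraries each, and bars are group means. The upper row holds rows detected in HZ only and the lower row rows detected in LC only, and IFI30 reaches 790 counts in La3 with 0 counts in Lb3.

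IFI30, a lysosomal thiol reductase that opens disulfide bonds of antigens, had the highest mean of all members, 453.3 counts. Its counts were 746, 379 and 790 in La and 338, 467 and 0 in Lb, and every HZ library was at 0. The deposited FPKM was 21.8 ± 5.73 (SD, n = 3) in La and 7.83 ± 7.06 (SD, n = 3) in Lb. Lb3 therefore had no counts for a row that was counted in the other 5 LC libraries. Whether its reads went to another row was not tested. The age change did not pass (log2 fold change -1.12, SE 0.99, edgeR adjusted p = 0.335, and -0.53 without Lb3). IFI30 lies at chr2:59629762-59633714 beside PIK3R2, which had between 244 and 1568 counts in all 12 libraries. A lncRNA of LOC106507303 overlaps IFI30 and was counted in both breeds.

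TEX44, a gene named for its expression in testis, was counted in LC at 120 days. Its counts were 148, 44 and 164 in Lb and 0 in the other 9 libraries, at least 43-fold higher than at 30 days. All 3 Lb libraries had the transcript. It lies at chr15:132266149-132267612 and its start overlaps the end of MSTRG.21734.1, an assembled lncRNA with 33, 42 and 26 counts in Hb and 7, 18 and 13 in Lb. The lncRNA was thus counted in both breeds and TEX44 in LC alone.

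The Y chromosome gave 4 of the members, among 71 of its rows with a mean of at least 10 counts in either breed. They were 2.41% of the HZ rows with a position, beside 0.28% of all such rows with that mean in HZ, and 3.17% of the LC rows, beside 0.36%. LOC110257946, an HSFY-like gene of a family of heat shock factors active in germ cells, had 62, 94 and 79 counts in Lb and at most 1.35 in HZ. It was at least 28-fold higher at 120 than at 30 days. Other HSFY-like rows of the Y chromosome with the same length, chosen for mention after their values were seen, differed among themselves. LOC110257871 had 169, 196 and 113 counts in Hb and 141, 177 and 141 in Lb, and LOC110257899 had 150, 153 and 97 in Hb and 22, 23 and 20 in Lb. LOC110257882 had 1, 7 and 0 counts in Hb and 73, 127 and 91 in Lb, and LOC110257954 had 4, 11 and 0 in Hb and 78, 79 and 51 in Lb. Some copies were thus counted in both breeds, LOC110257899 more in HZ, and others mostly in LC. The rows of this family may share reads, so the division of counts among the copies is uncertain. SRY, the switch of male sex determination, had 16, 14 and 15 counts in La and 3, 0 and 15 in Lb, and 1 count in all of HZ. Its age change did not pass (log2 fold change -1.11, SE 0.90, edgeR adjusted p = 0.295). Without Lb3, which had 15 counts, the log2 fold change was -3.13 and the row was called, so this library decides the result. The other Lb counts of SRY are under 10, so the call without Lb3 supports nothing. The coding rows of the Y chromosome together had between 15195 and 23628 counts per library in HZ and between 11471 and 19892 in LC. HZ libraries thus held abundant Y-linked RNA while SRY was near 0.

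The Y-linked members of HZ were assembled lncRNAs, chosen for mention after their values were seen. MSTRG.24675.1 had 59, 80 and 45 counts in Hb and 0 in the other 9 libraries. The coding row of the same gene, MSTRG.24675, had 63, 87 and 52 counts in Hb and 11, 14 and 10 in Lb, so the gene was counted in both breeds. MSTRG.24692.1 had 23, 56 and 16 counts in Hb. Another transcript of its gene, MSTRG.24692.2, had 0, 6 and 10 in Hb and 11, 4 and 5 in Lb. MSTRG.24692.1 overlaps MSTRG.24691.1, which had 542, 369 and 430 counts in Lb and 3, 4 and 0 in Hb. Whether these overlapping transcripts share reads was not tested.

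Among the other LC genes, some were seen at 120 days or in few libraries. CYP1A2, a cytochrome P450 of xenobiotic metabolism, had 4, 7 and 8 counts in La and 76, 0 and 98 in Lb. LOC100621166, a CXorf49 homolog on the X chromosome, had 374 counts in Lb3 and at most 8 in any other library. GPR25, an orphan G protein-coupled receptor, had 42, 19 and 20 counts in Lb and 0, 2 and 0 in La, a ratio of 43.8 with a 95% counting interval of 11.8 to 368.2. BIRC7, an inhibitor of apoptosis, had 11, 6 and 6 counts in La and 19, 45 and 23 in Lb (fitted log2 fold change 2.05). With 6 counts in La2 and La3, it passed the filter through Lb, where it was high, so its call supports nothing. The BIRC7 groups did not overlap. Its call was lost with limma on log2(FPKM + 1) (0.40), but its mean FPKM was 0.16 in La and 0.547 in Lb. Below a mean FPKM of 1 that scale cannot give a change over 1, so the loss was fixed in advance. GPR25 passed only through its high Lb libraries, and CYP1A2 and LOC100621166 did not pass.

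GLYATL2, an acyltransferase that joins fatty acids to glycine, was counted at 30 days. Its counts were 31, 51 and 56 in La and 0, 4 and 0 in Lb (fitted log2 fold change -4.86). LOC110257789, uncharacterized and on the X chromosome, had 27, 18 and 19 counts in La and 3, 3 and 4 in Lb (fitted log2 fold change -2.48). Neither reached 10 counts in any Lb library, so both passed the filter only through La and their calls support nothing. With limma on log2(FPKM + 1) the changes were -0.74 and -0.43. MSTRG.25170, close to an immunoglobulin kappa variable segment, had 36, 18 and 29 counts in La and 7, 0 and 3 in Lb. Its fitted log2 fold change was -2.85, and it too passed the filter only through La.

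The counts of some LC genes came from scattered libraries. FAIM2, an inhibitor of Fas-driven cell death, had 317 counts in La1, 166 in La2 and 0 in the other 10 libraries. HYDIN, a protein of the central pair of motile cilia, had 72 counts in La1, 123 in Lb1 and 0 in the other 10. RCOR2, a corepressor, had 141 counts in La3 alone. NHEJ1, a DNA repair factor, had 135 counts in La1 alone, and it overlaps SLC23A3, which had 102, 112 and 31 counts in Lb and 73 in Ha1. A row close to ribosomal protein L31, MSTRG.7545, had 71 and 27 counts in Lb2 and Lb3 and 0 in Lb1. None of these passed the filter, and their values do not separate the ages.

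The assembled coding rows of LC were seen mostly at 120 days. MSTRG.6877 had 110, 63 and 42 counts in Lb and 0 in La, a difference of at least 25.3-fold. MSTRG.13808 had 55, 76 and 53 and was at least 21.9-fold higher. MSTRG.15138 had 2, 1 and 8 counts in La and 63, 44 and 92 in Lb. Its fitted log2 fold change was 4.33, but it passed the filter only through Lb. In all of these the Lb libraries lay above the La libraries. MSTRG.19381 had 389 counts in Lb1 and 101 in Lb3 but 3 in Lb2, and it was not tested.

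Of the HZ lncRNA members, the highest mean belonged to LOC106507011 (XR_001302675.2), at chrX:91534775-91549167 within DCX. Its counts were 211, 203 and 116 in Ha and 4, 45 and 21 in Hb (log2 fold change -3.09, SE 0.74, edgeR adjusted p = 0.00964). It was not called with limma on log2(FPKM + 1) (-0.62), where its mean FPKM of 0.687 in Ha and 0.0933 in Hb allowed no change over 1. DCX, which encodes a microtubule protein of migrating neurons, was counted in both breeds, at 97 or more in each of the 12 libraries. LOC106506298 (XR_001301507.2) had 22, 27 and 15 counts in Ha and 0 in Hb, at least 7.66-fold lower at 120 days. These lncRNAs were lower at 120 days.

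More of the HZ lncRNAs were counted at 120 days. MSTRG.25169.1 had 379, 61 and 98 counts in Hb and 0, 2 and 0 in Ha, and MSTRG.2063.2 had 149, 290 and 80 in Hb and 0 in Ha. The latter was at least 51.9-fold higher at 120 days. MSTRG.5876.1 and MSTRG.5876.2, which span the same interval chr3:128700328-128702092, had 130, 118 and 125 and 150, 139 and 106 counts in Hb. Their neighbour MSTRG.5877.1 had 107, 105 and 79 counts in Hb and 5, 2 and 0 in Lb, close to the same pattern. In all of these the Hb libraries lay above the Ha libraries.

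Transcripts of one gene that were both members do not count as separate evidence, since they may share reads. MSTRG.146.2, at chr1:13011043-13033982, had 60, 368 and 55 counts in Hb beside the 265, 800 and 283 of the coding row MSTRG.146. MSTRG.21329.1 had 34, 15 and 75 and MSTRG.21329.2 had 55, 8 and 33, beside their coding row MSTRG.21329. MSTRG.21148.1 had 98, 114 and 88 counts in Hb while MSTRG.21148.2 had 202 in Hb3 and 0 in Hb1 and Hb2. MSTRG.2725.4 had 75, 149 and 115 and MSTRG.2725.5 had 36, 51 and 52, and another transcript of that gene, MSTRG.2725.1, had 22, 28 and 21 counts in Hb and 26, 10 and 20 in Lb. The gene of the last pair was therefore counted in both breeds. The 100 HZ rows belong to 88 genes and the 78 LC rows to 74.

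In LC, the lncRNA with the highest mean was MSTRG.10331.3, at chr6:85533651-85535655. Its counts were 502, 450 and 374 in La and 280, 548 and 476 in Lb, and at most 2.38 in HZ. The age groups overlapped and the change did not pass (log2 fold change -0.42, SE 0.32, edgeR adjusted p = 0.277), and its direction turned (0.12) when the lncRNA counts were scaled as the coding table. It overlaps XR_002344951.1 of LOC100621455, which had between 303 and 1038 counts in all 12 libraries. A transcript of LOC110261648, XR_002346057.1, had 0, 249 and 34 counts in La and 103, 0 and 9 in Lb, and another transcript of that gene, XR_002346056.1, had 1415, 1643 and 2088 counts in Ha and 1066, 1036 and 883 in La.

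Several LC lncRNAs were lower at 120 days. MSTRG.22309.2 had 101, 193 and 157 counts in La and 0, 1 and 0 in Lb, a ratio of 561.5 with a 95% counting interval of 100.3 to 22228. MSTRG.22309.1 of the same gene had 27, 105 and 67 in La and 0 in Lb. MSTRG.17917.5, which overlaps ACVR2B, had 48, 139 and 186 counts in La and 1, 0 and 7 in Lb. Its fitted log2 fold change was -5.92, and -0.91 with limma on log2(FPKM + 1), but it passed the filter only through La. MSTRG.19249.3 had 79, 98 and 112 counts in La and 2, 1 and 0 in Lb, and MSTRG.19249.4 of the same gene had 65, 50 and 64 in La and 2, 8 and 0 in Lb. They overlap XR_002338076.1 of LOC102166913, which had 439, 356 and 486 counts in La and 76, 85 and 19 in Ha. LOC102166398 (XR_002337049.1) went the other way, with 79, 58 and 55 counts in Lb and 0 in La, at least 17-fold higher. These rows separated the ages in LC without overlap.

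The gene MSTRG.5829 on the plus strand of chromosome 3 had a member in each breed, and it was the only such pair among 21 pairs of members of one gene or within 10 kb. MSTRG.5829.6 (chr3:123789847-124071351) had 102, 57 and 80 counts in Lb, 0 in La and at most 2.21 in HZ, at least 21.1-fold higher at 120 days. MSTRG.5829.4 (chr3:123789842-124071166), outside the rule for named rows and chosen after its values were seen, had 4, 2 and 0 counts in Ha, 9, 11 and 94 in Hb and at most 2.34 in LC. MSTRG.5829.4 carries an exon at chr3:123904384-123904460 and another at chr3:123985257-123985331 that MSTRG.5829.6 lacks. The coding row of the gene had 36, 52 and 126 counts in Hb and 298, 262 and 279 in Lb, so the gene itself was counted in both breeds.

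**Figure D3:**
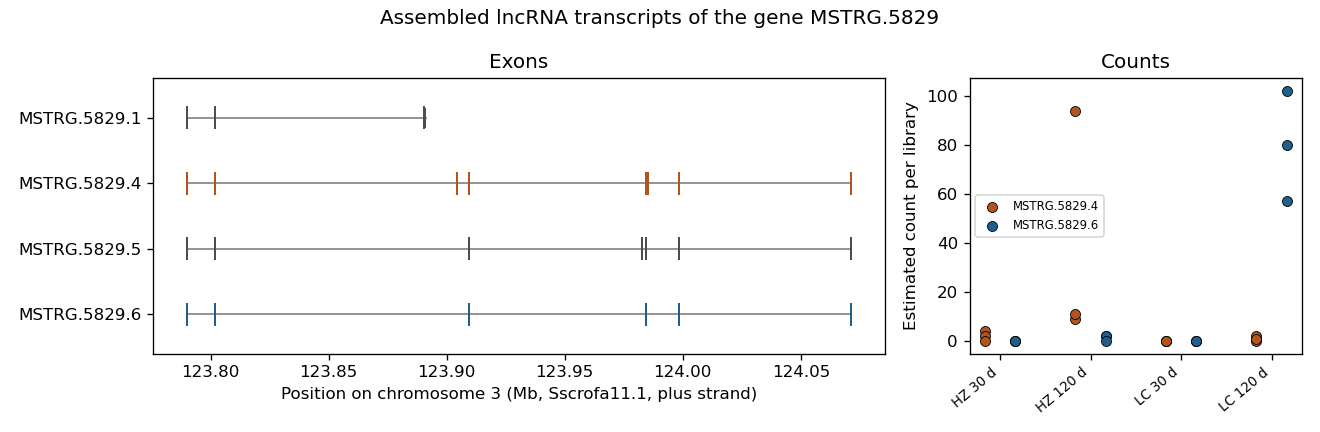
The left panel maps the exons of the assembled transcripts of MSTRG.5829 by position on chromosome 3 (Mb, exon marks widened so that they can be seen), and the right panel gives estimated counts per library in the 4 groups. MSTRG.5829.6 lies between 57 and 102 counts in Lb, and MSTRG.5829.4 reaches 94 counts in Hb3.

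Rows around some members were counted in the breed that lacked them. Of the 71 HZ lncRNA rows, 24 had another row of the same gene with a mean of at least 10 counts in LC, and of the 42 LC lncRNA rows, 18 had one in HZ. A row of another gene overlapped 31 of the 80 HZ rows and 28 of the 61 LC rows with a position on a named sequence, at that mean in the breed without the member. Members of another gene lay within 100 kb of 3 HZ rows and 4 LC rows. These shares were not taken over all rows, so whether the members differ from other rows in this was not tested.

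Class u, which marks assembled lncRNAs lying between annotated genes, took 27 of the 51 assembled HZ lncRNAs (52.9%, beside 36.6% of those with a mean of at least 10 counts in HZ). It took 5 of the 23 assembled LC lncRNAs (21.7%, beside 34.8%). Class x, antisense to a gene's exons, took 13 of 51 (25.5%, beside 20.9%) and 5 of 23 (21.7%, beside 20.8%). Class j, which shares a splice junction with an annotated gene, took 4 of 51 (7.84%, beside 21.4%) and 7 of 23 (30.4%, beside 22.7%). Class o, with another kind of exon overlap, took 2 of 51 (3.92%, beside 6.2%) and 4 of 23 (17.4%, beside 6.41%), and class i, within an intron, took 5 of 51 (9.8%, beside 14.9%) and 2 of 23 (8.7%, beside 15.2%). The X chromosome held 8 members, 3 in HZ and 5 in LC, or 3.61% and 7.94% of the placed rows, beside 3.52% and 3.57% of all placed rows with that mean. Scaffolds with no chromosome held 5 HZ rows (6.02%, beside 2.04%) and 2 LC rows (3.17%, beside 2%).

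Families whose copies are alike or vary between pigs gave between 0 and 2 members each, where 65 of all 16958 coding rows with a mean of at least 10 counts in a breed (0.383%) were members. Among these coding rows, zinc finger proteins gave 1 of 404 rows, cytochromes P450 gave 2 of 45 and rows whose description holds the words immunoglobulin or T cell receptor gave 2 of 59. Of the last, LOC100525582 is there only for the word immunoglobulin-like, and MSTRG.25170 is close to an immunoglobulin segment. Ribosomal proteins gave 1 of 181 and retroviral or transposon-like rows gave 1 of 48. Swine leukocyte antigens (14 rows), olfactory receptors (73), histones (65), interferon-named rows (47), glutathione S-transferases (7), sulfotransferases (4), UDP-glucuronosyltransferases (2) and beta-defensins (1) gave 0 members. The interferon list goes by that word in the description, which the description of the member IFI30 does not hold.

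Because the counts of the breeds chose the rows, only the age change within the breed that had the transcript was tested. Of the 29 HZ coding rows, 17 passed the filter on low counts, and 10 were called higher at 120 days and 4 lower, where 28.2% and 23.2% of all rows tested were called. Of the 71 HZ lncRNA rows, 35 passed, and 22 were called higher and 2 lower, where 38.6% and 17.6% of all were called. Of the 36 LC coding rows, 23 passed, and 16 were called higher and 4 lower, beside 27.5% and 20.1%. Of the 42 LC lncRNA rows, 29 passed, and 11 were called higher and 11 lower, beside 41.8% and 19.3%. The calls of rows that passed only through one age support nothing, so these counts of calls say nothing about the members as a group. Rows with at most 3 counts in every library of one age were 8 of the 17 coding rows and 19 of the 35 lncRNA rows tested in HZ. In LC they were 13 of 23 and 17 of 29. These numbers are minimums, since further rows went above 3 but stayed under 10 counts at one age. Among them are all 4 HZ coding rows called lower. Without Hb1, the rule gave 82 HZ rows and 102 LC rows, and 35 HZ rows were called higher and 8 lower, beside 32 and 6 with it.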

How the data were processed

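Testis RNA of 12 boars was depleted of ribosomal RNA and sequenced with a strand-specific protocol. The authors filtered reads with fastp 0.18.0, removed ribosomal reads with Bowtie2 2.2.8, mapped to Sus scrofa 11.1 with HISAT2 2.1.0 and assembled transcripts with StringTie 1.3.4. The authors deposited estimated counts, which need not be whole, and FPKM values per coding gene and per lncRNA transcript. The FPKM were calculated with StringTie. For the estimated counts, the program is not given in the sources used here. The deposited assembly gives start and end positions of the assembled lncRNAs, and other positions are those of RefSeq (Sscrofa11.1), which held all 29948 RefSeq rows. Most assembled coding rows have no position.

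The rule was applied to the unrounded counts. The members and lists were chosen with earlier results of these data known. For the age tests, counts were rounded and each table was fitted on the 6 libraries of a breed with edgeR 4.0.16 (filterByExpr with a minimum count of 10, TMM, quasi-likelihood test, R 4.3.3). Calls needed a change of more than 1 on the log2 scale in either direction and a p, adjusted over the whole table by Benjamini-Hochberg, under 0.05. Standard errors are the size of the fitted change divided by the root of the F statistic. Against an age with no counts, a fold is a lower bound against 3 counts in each library. With 1 to 3 counts there, the ratio of summed counts has an exact 95% interval. The bound and the ratio are scaled by effective library size (total counts times the TMM factor). Both cover counting error only. The age test was tested on simulated data with 200 rows changed 3-fold, at an adjusted p under 0.05. In the coding table it recovered 197 with 15 false calls in HZ (15596 rows tested) and 197 with 10 in LC (15508 rows). In the lncRNA table it recovered 196 with 7 in HZ (2262 rows) and 192 with 5 in LC (2104 rows). The simulation gave every row the same dispersion and changed only rows above a minimum mean count. It therefore does not show how the test performs on low or uneven rows, as many members are. Tables were handled with Python 3.11.15, numpy 2.4.6 and pandas 2.3.3, and figures were drawn with matplotlib 3.10.9.

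Named rows follow a rule, and rows outside it are marked as chosen after their values were seen. In each direction the rule takes the 8 coding and 4 lncRNA rows of highest mean, up to 10 further coding rows with a gene symbol, the 2 called rows of smallest adjusted p per table and age direction whose groups do not overlap, up to 8 pairs of members of one gene or within 10 kb, and the rows next to the thresholds. The comparison of protein sequences in that rule was left out, since no sequences were at hand. Alternatives used DESeq2 1.42.0, limma 3.58.1 on FPKM, other filters and scalings, a replicate block and each library left out.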

Additional observations from a re-analysis of the deposited data

How the results depend on the processing

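The number of rows detected in one breed only, 178, followed the limits of the rule. It was 96 with a ceiling of 0 counts and 118 with a ceiling of 1, and 356, 96 and 26 with a minimum mean of 5, 20 and 50 counts. A median of at least 10 counts left 86 rows, and more than 3 counts in each of the 6 libraries left 13. With the rows of one gene summed first, an alternative chosen after seeing the data, 112 genes met the rule. Leaving out each library in turn gave between 184 and 206 rows. Of the HZ rows, 32 were called higher and 6 lower at 120 days, and of the LC rows 27 and 15. With no filter, where all 100 HZ rows were tested, 54 and 10 were called in HZ. With limma on log2(FPKM + 1), 3 were called lower in HZ, and 17 higher and 5 lower in LC. The LC calls without a filter and the higher HZ calls with limma are not given here. No share over all rows stands beside these counts of calls, so they say nothing about the members as a group. The cause was not tested. Leaving out each library gave 35 to 43 higher and 7 to 10 lower in HZ (10 without Hb2), and 28 to 33 and 14 to 18 in LC, with more rows past the filter. Of the named rows, MSTRG.10331.3 turned to a log2 fold change of 0.12 when lncRNA counts were scaled as the coding table, and XR_002346057.1 to 0.58 without La2 (-4.77 without Lb1). Neither reversed value was called. With limma on log2(FPKM + 1), 12 named rows had a log2 change under 1 and were no longer called. In all of them but PON3 the mean FPKM was under 1 at both ages. This scale then allows no change over 1, so these losses were fixed in advance. The 12 rows include PON3 (-0.93) and XR_001302675.2 (-0.62) in HZ, and GLYATL2 (-0.74), BIRC7 (0.40), LOC110257789 (-0.43) and MSTRG.17917.5 (-0.91) in LC. The other 6 were KRT36, HABP2, XR_001301507.2, GPR25, XR_002337049.1 and XR_002346785.1. These 6, and PON3, GLYATL2, LOC110257789 and MSTRG.17917.5, had passed the filter only through one age, so their calls support nothing either way. BIRC7 had passed through its high Lb libraries, so the same holds for its call. SHOX gained a call with limma on log2(FPKM + 0.1) (-1.60) and without Hb2 (-1.83), and SRY gained one without Lb3 (-3.13). Counts near 3 and 10 limit all of these values.

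With the replicate number as a block, 32 HZ rows were called higher and 6 lower, and 27 and 14 in LC. Deviations of same-numbered libraries of a breed correlated at 0.062 or less, so these libraries share only a number.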

Other observations

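Some rows with high counts stood just outside the rule. With a highest count above 3 and up to 10 in one breed and a mean of at least 100 in the other, limits chosen after the data were seen, 4 rows were high in HZ and 6 in LC. RDH16, a retinol dehydrogenase at chr5:22251751-22266801, had 5555, 3870 and 4332 counts in Ha and 1858, 0 and 23 in Hb, while the LC libraries had 2, 0 and 3 in La and 0, 6 and 0 in Lb. Its mean of 2606 counts in HZ exceeds that of every member. Hb1, with 1858 counts, is also the Hb library with the most Leydig cell marker RNA, and the link was not tested. WDR88 had 484 counts in Hb2, 169 in Hb3 and 0 in Hb1, with at most 5.88 in LC. MSTRG.25066, close to an olfactory receptor, had 33, 51 and 13 counts in Ha and 154, 201 and 292 in Hb, with at most 5 in LC. On the LC side, the Y-linked lncRNA MSTRG.24689.1 had 560, 802 and 686 counts in Lb and at most 6 in HZ. The coding row of its gene, MSTRG.24689, had 28, 21 and 22 in Hb and 583, 835 and 712 in Lb. That gene was thus counted in both breeds. The assembled lncRNA MSTRG.21773.1 had 422, 381 and 344 counts in Lb and at most 8 in HZ. These rows show that the ceiling of 3 counts leaves out rows of the same kind.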
